A study of Arabidopsis thaliana with 6 samples.

Results

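The kinesin genes of Arabidopsis were followed in mature leaves of the mutant *flpl1* and of its wild type Col-0. They were chosen from the gene ontology (GO) terms in the deposited tables, as the nuclear genes whose molecular function holds the term microtubule motor activity. Of 32243 listed genes, 64 held the term, and 61 of these had at least 10 counts summed over the 6 libraries and were kept. The 61 members include 4 genes that hold only the narrower plus-end-directed form of the term. The genes left out, AT2G15160, AT4G15885 and AT5G41310, had 5, 0 and 3 counts in all. Of the members, 13 lie on Chr. 1, while Chr. 2 and Chr. 4 carry 8 each, Chr. 3 has 18 and Chr. 5 has 14.

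*flpl1* (line C30-81-as6) was obtained by carbon-ion irradiation of dry Col-0 seeds, flowers late and forms rosette leaves without petioles. It carries an additional copy of Chr. 2 besides other radiation-induced mutations, and its plants were chosen by phenotype and by raised DNA content in flow cytometry. Col-0 is the wild type background. Each of the 6 RNA-seq libraries came from the fully mature leaves of 1 plant, and the plants, 3 per genotype (n = 3), had the same age. All *flpl1* plants descend from a single mutant line, and the age in days and the generation sampled are not given in the labels. The study states M3 as the generation of its *flpl1* plants where no other is named, and names none for the RNA. Plants of the same age differ in flowering time between these groups, so the genotype and the developmental stage of the leaf cannot be told apart.

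Kinesins are motor proteins that hydrolyse ATP to walk along microtubules or to shorten them. In dividing plant cells they build the mitotic spindle and the phragmoplast, the microtubule array on which the new cell plate is laid down between daughter cells. In cells that no longer divide, other kinesins serve cell wall deposition, trichome shape, organelle traffic and chloroplast movement. A mature Arabidopsis leaf holds few dividing cells. Many division genes of plants carry in their promoters the mitosis-specific activator element with its core AACGG, which MYB3R transcription factors bind.

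The promoters of 5 members that were higher in *flpl1* are shown, the 4 with the largest rises among those that hold the AACGG core and *ATK5* as the gene with the largest rise among those that do not. Each line runs from 250 bases before to 50 bases after the gene start of the RefSeq annotation (build TAIR10.1), 5′ to 3′ on the strand of the gene, and the core or its reverse complement CCGTT is in capitals. The windows are chr4:8243803-8244102 on the plus strand for AT4G14330, chr1:6324329-6324628 on the minus strand for *HIK*, chr2:12270714-12271013 on the minus strand for AT2G28620, chr3:6577474-6577773 on the plus strand for *POK2* and chr4:2674814-2675113 on the plus strand for *ATK5*.
AT4G14330: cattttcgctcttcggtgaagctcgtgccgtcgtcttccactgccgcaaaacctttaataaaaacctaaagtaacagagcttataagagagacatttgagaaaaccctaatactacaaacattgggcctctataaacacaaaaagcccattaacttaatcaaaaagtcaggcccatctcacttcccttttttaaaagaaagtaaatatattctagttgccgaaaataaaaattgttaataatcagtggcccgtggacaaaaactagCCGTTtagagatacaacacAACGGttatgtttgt
HIK: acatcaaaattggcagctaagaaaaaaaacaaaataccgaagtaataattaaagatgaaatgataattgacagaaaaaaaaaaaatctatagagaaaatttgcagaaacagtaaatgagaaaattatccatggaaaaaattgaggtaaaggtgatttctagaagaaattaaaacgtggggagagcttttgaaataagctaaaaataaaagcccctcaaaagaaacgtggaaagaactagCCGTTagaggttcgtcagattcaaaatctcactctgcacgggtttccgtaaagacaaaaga
AT2G28620: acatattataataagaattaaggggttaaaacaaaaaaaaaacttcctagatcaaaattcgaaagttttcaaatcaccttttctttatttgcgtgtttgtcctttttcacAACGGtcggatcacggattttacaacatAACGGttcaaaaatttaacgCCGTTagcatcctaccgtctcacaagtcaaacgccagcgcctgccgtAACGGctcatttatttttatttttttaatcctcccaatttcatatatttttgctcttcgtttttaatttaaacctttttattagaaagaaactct
POK2: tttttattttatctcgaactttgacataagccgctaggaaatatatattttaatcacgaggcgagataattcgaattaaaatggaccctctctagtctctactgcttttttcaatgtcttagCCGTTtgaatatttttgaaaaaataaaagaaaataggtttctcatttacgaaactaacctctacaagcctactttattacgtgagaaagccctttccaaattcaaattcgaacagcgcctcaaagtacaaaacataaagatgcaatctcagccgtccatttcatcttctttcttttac
ATK5: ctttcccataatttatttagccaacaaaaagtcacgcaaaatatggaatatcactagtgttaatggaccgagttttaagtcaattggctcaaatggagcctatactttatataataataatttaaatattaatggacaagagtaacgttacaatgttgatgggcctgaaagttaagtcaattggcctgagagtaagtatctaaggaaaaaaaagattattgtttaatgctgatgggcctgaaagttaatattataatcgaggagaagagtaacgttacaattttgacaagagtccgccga

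AT2G28620, whose GO terms are mitotic spindle assembly and spindle elongation, held 4 copies of the core, starting at positions -140, -112, -92 and -45 from the gene start. AT4G14330 held 2 copies, both after the RefSeq gene start, and *HIK* and *POK2* held 1 copy each. The gene positions used for the counts differ from RefSeq for some genes. There AT4G14330 starts at 8244194, AT2G28620 at 12270020 and *HIK* at 6324222, so the windows of these genes lie wholly before those starts. Positions of the core thus depend on the annotation. No copy lay in the window of *ATK5*. The search covered both strands, and the core and its complement cannot overlap. Of the 60 members with a promoter in RefSeq, 31 (51.7%) held the core and 14 (23.3%) held 2 or more copies. Over all 27443 protein-coding promoters of the same length the shares were 24.7% and 4.89%. The members called higher below held it in 17 of 28 promoters (60.7%), and the members tested but not called in 13 of 28 (46.4%). Over all tested protein-coding genes the share was 26.5%, and over those called higher it was 26.9%. A link between the core and the calls was not tested. A match describes the letters in the window and is not a measured binding site.

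The libraries held 19465078 to 24633070 counts, and 59 to 61 of the members had at least 1 count in each of them. The deposited FPKM is the count divided by the exonic length of the gene and by the total of the library, so levels of different genes can be compared on it. Differences between the groups were tested with edgeR's quasi-likelihood test on the counts of 18638 genes, with Benjamini-Hochberg adjustment over all of them. A gene was called when its adjusted p was under 0.05 and its fold change at least 2. FPKM and counts measure shares of the leaf's RNA, and in whole leaves more cells of a type and more RNA per cell cannot be told apart.

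Of the 56 members tested, 28 were called higher in *flpl1*, against 0 lower, with a median log2 fold change of 1.01. At an unadjusted p under 0.05 and any fold 4 members were lower, and DESeq2 and limma on log2(FPKM + 1) called 1 member lower each. Over all tested genes 19.8% were called higher and 14.4% lower, and the median log2 fold change was 0.00. Another 9 members rose by less than 2-fold and 4 fell by less than 2-fold, both at an adjusted p under 0.05, and 15 had a larger adjusted p. Without the limit on the fold change the members higher were thus 37 of 56 beside 30.9% of all genes, and the members lower 4 of 56 beside 30.7%. The FPKM of all 3 *flpl1* libraries lay above that of all 3 Col-0 libraries for 37 of the 61 members and below it for 7, where the shares over all tested genes were 29.8% and 38.4%.

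The filter on low counts bears on these counts. It asked for about 0.44 CPM (counts scaled to the library total) in at least 3 libraries, and 37 of the tested members met this in the 3 Col-0 libraries alone. Of these 37, 12 were called higher. The other 19 tested members needed *flpl1* libraries to pass, and 16 of them were called. With no filter on low counts all 61 members were fitted and the same 28 were called higher, beside 17.0% of all genes. The 5 untested members stayed at or under 0.38 FPKM in each library. Among members with a mean FPKM of at least 1 over the 6 libraries, 11 of 35 (31.4%) were called higher beside 18.1% of all tested genes at that level. Below that level 17 of 21 (81.0%) were called, beside 38.0%. Split by the Col-0 level alone, 4 of the 28 members at or over 1 FPKM in Col-0 were called higher (14.3%), beside 14.2% of all tested genes at that level, a share near the background. Under 1 FPKM in Col-0 it was 24 of 28 (85.7%), beside 60.8%, and such genes pass the filter more readily when they are high in *flpl1*.

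**Figure D1:**
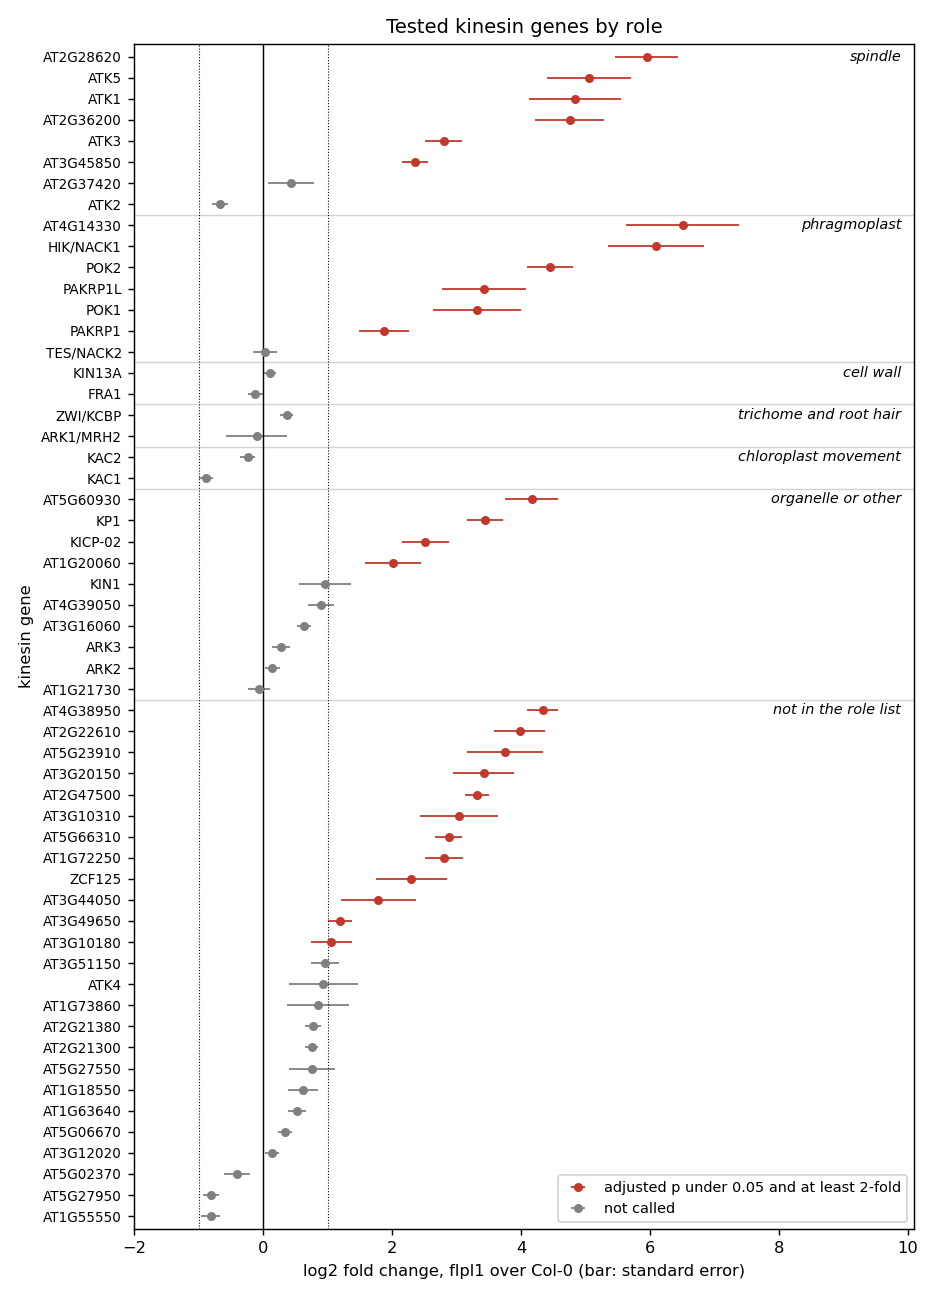
Fold change of the 56 tested kinesin genes, with the log2 fold change of *flpl1* over Col-0 on the horizontal axis, 1 gene per row grouped by role, and bars for the standard error of the fit; dotted lines mark 2-fold. Called genes (red) reach from 1.06 for AT3G10180 to 6.51 for AT4G14330, and no called gene lies left of 0.

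The spindle kinesins include motors that slide antiparallel microtubules apart and minus-end-directed motors that gather the spindle poles. Of the 8 members with this role, 6 were called higher (beside 19.8% of all tested genes), and the median log2 fold change was 3.78. Of the 6 called, 5 were under 1 FPKM in Col-0, where 60.8% of all tested genes were called higher. AT2G28620, AT2G36200, *ATK5* and *ATK1* passed the filter on low counts only with *flpl1* libraries. AT2G28620 (Chr. 2, 12265167 to 12270020, TAIR10), which the GO terms also place in cell plate formation, had 2.87, 3.01 and 1.63 FPKM in *flpl1* replicates 1 to 3, against 0.03, 0.03 and 0.08 in the Col-0 replicates. Its log2 fold change was 5.95 (SE 0.49, adjusted p = 0.000122), a fold change of 61.9. AT2G36200, with the same spindle terms, had 4.14, 2.45 and 1.35 FPKM in *flpl1*, against 0.14, 0.07 and 0.10 in Col-0 (log2 fold change 4.75, SE 0.53, adjusted p = 0.000326). In both genes all *flpl1* libraries lay above all Col-0 libraries, with the lowest at 1.63 and 1.35 FPKM and the highest Col-0 library at 0.08 and 0.14.

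AT3G45850, another member with the terms mitotic spindle assembly and spindle elongation, was already measured at 5.42, 3.70 and 4.98 FPKM in Col-0. It reached 23.6, 21.6 and 20.3 FPKM in *flpl1*, the third highest mean level of all members there, with a log2 fold change of 2.35 (SE 0.20, adjusted p = 0.000138). The last gene with these terms, AT2G37420, had 1.69, 1.79 and 0.83 FPKM in *flpl1*, against 0.90, 1.68 and 1.03 in Col-0. Its groups overlapped, and its log2 fold change of 0.43 (SE 0.36, adjusted p = 0.328) did not exceed the spread between plants. The 4 genes of this kind therefore ran from no detectable difference to a 61.9-fold rise.

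Among the minus-end-directed motors, *ATK5* (AT4G05190), which gathers spindle poles, had 1.96, 1.32 and 0.70 FPKM in *flpl1*, against 0.08, 0.03 and 0.02 in Col-0 (log2 fold change 5.06, SE 0.65, adjusted p = 0.000565). It shares 492 bp with AT4G05200 on the opposite strand, a gene with 0 counts in all libraries. *ATK1* (AT4G21270), which acts at spindle poles mainly in male meiosis, had 1.44, 1.58 and 0.79 FPKM against 0.07, 0 and 0.07, a log2 fold change of 4.83 (SE 0.72, adjusted p = 0.00101). *ATK3* (AT5G54670), a minus-end motor of the same family, had 3.0, 4.71 and 3.05 FPKM against 0.63, 0.64 and 0.43, a log2 fold change of 2.80 (SE 0.29, adjusted p = 0.000245). In all 3 genes the groups were separated, with the *flpl1* libraries above.

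*ATK2* (AT4G27180, Chr. 4, 13614856 to 13619156) went the other way. This minus-end motor, with the term spindle assembly, had 16.7, 18.8 and 19.7 FPKM in *flpl1*, against 26.3, 37.4 and 34.1 in Col-0. Its level fell in *flpl1* by 0.67 on the log2 scale (SE 0.12, adjusted p = 0.00240), which is less than 2-fold. Of the spindle members it had the highest level in Col-0, at 32.6 ± 5.67 FPKM (SD, n = 3), where *ATK1* and *ATK5* were at 0.0467 ± 0.0404 and 0.0433 ± 0.0321 FPKM.

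The phragmoplast kinesins expand the array, hold its midzone or keep the cortical site where the cell plate will fuse. Of 7 members, 6 were called higher, and the median log2 fold change was 3.42. On log2(FPKM + 1) with limma the number called higher was 1. All 6 called with edgeR were under 1 FPKM in Col-0. The shares to set beside them are again 19.8% of all tested genes and 60.8% of those at that level. The 6 met the CPM minimum in 0 to 2 of the Col-0 libraries, so they passed the filter only with *flpl1* libraries. The 60.8% is not a like share, since it also holds genes such as AT3G44730 that met the minimum in all 3 Col-0 libraries. *HIK* (also *NACK1*, AT1G18370, Chr. 1, 6319650 to 6324222), which activates the MAP kinase cascade that drives phragmoplast expansion, had 2.37, 1.57 and 0.78 FPKM in *flpl1*, against 0, 0.04 and 0.03 in Col-0. In counts these were 178, 98 and 54 against 0, 3 and 2. Its log2 fold change was 6.10 (SE 0.74, adjusted p = 0.000449). AT4G14330 (Chr. 4, 8244194 to 8247444), annotated to the phragmoplast and to vesicle transport along microtubules, had 88, 74 and 32 counts in *flpl1*, against 0, 0 and 2 in Col-0. The ratio of its counts per total counts was 98.5, with a 95% exact counting interval from 26.9 to 819.0 that covers counting error only, and its fitted log2 fold change was 6.51 (SE 0.88, adjusted p = 0.000674).

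*POK1* and *POK2* keep the cortical division site after the preprophase band has gone. *POK2* (AT3G19050) had 1.21, 1.12 and 0.74 FPKM in *flpl1* against 0.07, 0.05 and 0.04 in Col-0 (log2 fold change 4.44, SE 0.35, adjusted p = 0.000113). *POK1* (AT3G17360) was less abundant than *POK2* in *flpl1*, at 0.73, 0.63 and 0.31 FPKM against 0.12, 0.04 and 0.02, and its log2 fold change was 3.31 (SE 0.68, adjusted p = 0.00435). The *flpl1* libraries were above the Col-0 libraries in both genes.

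The phragmoplast midzone motors *PAKRP1* and *PAKRP1L* also rose. *PAKRP1L* (AT3G23670) had 0.93, 0.80 and 0.36 FPKM against 0.08, 0.11 and 0.01 (log2 fold change 3.42, SE 0.65, adjusted p = 0.00301). *PAKRP1* (AT4G14150) had 0.54, 0.43 and 0.40 FPKM against 0.11, 0.21 and 0.09 (1.87 on the log2 scale, SE 0.39, adjusted p = 0.00431). Its rise was the smallest among the 6 called phragmoplast members.

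*TES* (also *NACK2*, AT3G43210) is the relative of *HIK* that acts in the same cascade at cytokinesis after male meiosis. It had 1.68, 1.56 and 1.76 FPKM in *flpl1*, against 1.51, 1.78 and 2.19 in Col-0, and the groups overlapped. Its log2 fold change was 0.02 (SE 0.19, adjusted p = 0.926). In Col-0 leaves *TES* was at 1.83 ± 0.342 FPKM and *HIK* at 0.0233 ± 0.0208 FPKM (SD, n = 3), while in *flpl1* the means were 1.67 ± 0.101 and 1.57 ± 0.795 FPKM.

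**Figure D2:**
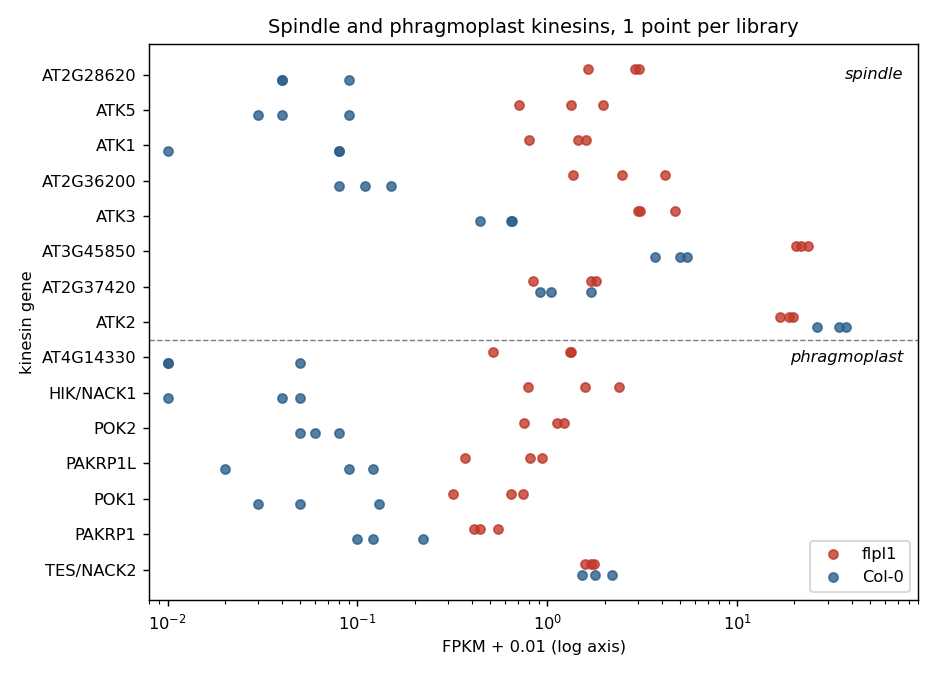
FPKM of the 15 spindle and phragmoplast kinesins, 1 point per library, on a log axis after adding 0.01; *flpl1* is red and Col-0 blue. In 12 rows the *flpl1* points lie to the right of all Col-0 points, *ATK2* is reversed, and AT2G37420 and *TES* overlap.

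The *flpl1* plants differed among themselves. Of the 12 called spindle and phragmoplast members, 11 had their lowest *flpl1* FPKM in replicate 3 and 8 their highest in replicate 1, and over all 28 called members these counts were 25 and 18. The same counts were not made over all tested genes, and members that vary together are not separate observations of the plants. The summed FPKM of the 7 phragmoplast members was 8.76, 7.43 and 4.86 in *flpl1* replicates 1 to 3 and 1.89, 2.23 and 2.42 in Col-0. *TES* made up most of the Col-0 sum, and without it the sums of the other 6 were 7.08, 5.87 and 3.10 FPKM, against 0.38, 0.45 and 0.23. The 8 cyclin, CDK and *CDC20* genes of the G2/M list described below stood in the same order, with sums of 23.1, 17.6 and 9.88 FPKM in *flpl1*, against 1.95, 1.54 and 2.0 in Col-0.

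By GO terms alone, 23 tested members named the spindle, phragmoplast, cytokinesis, cell division or cell plate, *KICP-02* (AT3G50240) and AT5G60930 among them. Of the 23, 16 were called higher, against 12 of the 33 without such a term, beside 19.8% of all tested genes. Most of the 16, such as *HIK*, *ATK5* and AT5G60930, passed the filter on low counts only with *flpl1* libraries. Most were also under 1 FPKM in Col-0, where 60.8% of all tested genes were called higher. The counts with and without such a term are therefore not a like comparison. Neither *KICP-02* nor AT5G60930 was listed under the spindle or phragmoplast role. *KICP-02*, with terms for spindle organization and cell wall organization, had 16.3, 19.4 and 19.4 FPKM in *flpl1*, against 5.26, 2.05 and 3.07 in Col-0 (log2 fold change 2.52, SE 0.36, adjusted p = 0.000930). AT5G60930, with the same terms, had 2.61, 1.87 and 1.12 FPKM against 0.08, 0.13 and 0.13 (4.16, SE 0.41, adjusted p = 0.000208). *KP1* (AT3G44730), a kinesin with a calponin homology domain that binds mitochondria, had 2.37, 2.71 and 1.74 FPKM against 0.21, 0.21 and 0.27 (3.44, SE 0.28, adjusted p = 0.000120). All 3 were separated between the groups. AT1G20060, whose terms name only the kinesin complex and the nucleus, was at 0.710 ± 0.347 FPKM against 0.197 ± 0.0115 (SD, n = 3 each; log2 fold change 2.01, SE 0.43, adjusted p = 0.00520).

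A further 12 called members carry no more than general motor terms or were not in the list of roles, and their log2 fold changes ran from 1.06 to 4.33. AT4G38950 (Chr. 4, 18154395 to 18159936), annotated to microtubules and plasmodesmata, had the largest of these. It was at 14.4, 18.0 and 14.3 FPKM in *flpl1*, against 0.80, 0.64 and 1.14 in Col-0 (log2 fold change 4.33, SE 0.25, adjusted p = 6.9e-05). AT2G47500 had 13.2, 10.7 and 9.03 FPKM against 1.19, 1.25 and 1.21 (log2 fold change 3.32, SE 0.18, adjusted p = 6.58e-05). In *flpl1* leaves these genes reached the level of kinesins that are common in Col-0 leaves.

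The other called members of this kind had lower levels in *flpl1*. AT5G66310, annotated to plasmodesmata as AT4G38950 is, had 3.05, 3.55 and 3.29 FPKM against 0.56, 0.48 and 0.43 (log2 fold change 2.88). AT2G22610 (3.98), AT5G23910 (3.75), AT3G10310 (3.04), AT1G72250 (2.81) and *ZCF125* (AT1G59540) (2.30) had means of 0.713 to 2.14 FPKM in *flpl1* and of 0.0933 to 0.263 in Col-0. AT3G20150, with the term regulation of mitotic spindle assembly, rose by 3.42 on the log2 scale, and AT3G49650 by 1.20. All of these were separated between the groups, with adjusted p between 9.47e-05 and 0.0086.

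The calls of AT3G44050 and AT3G10180 were less firm. AT3G44050, annotated to the spindle and the phragmoplast, was the only called member whose groups overlapped, at 1.26, 0.78 and 0.36 FPKM against 0.12, 0.43 and 0.24 (log2 fold change 1.79, SE 0.58, adjusted p = 0.0290). Its call was lost without Col-0 replicate 1 or 3 or *flpl1* replicate 1 or 2, with adjusted p of 0.0609, 0.0802, 0.107 and 0.0661. AT3G10180 rose by 1.06 (SE 0.31, adjusted p = 0.0203). Its call was lost without Col-0 replicate 2 or 3 or *flpl1* replicate 1 or 2, with adjusted p of 0.0557, 0.0721, 0.0728 and 0.0591.

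*KAC1* and *KAC2* are kinesin-like proteins of actin-based chloroplast movement. *KAC1* (AT5G10470, Chr. 5, 3289925 to 3297390) had 20.5, 21.9 and 21.8 FPKM in *flpl1*, against 39.5, 48.1 and 45.0 in Col-0. Its level fell by 0.89 on the log2 scale (SE 0.11, adjusted p = 0.000449), short of 2-fold. On log2(FPKM + 1) with limma it fell by 1.01 and was called, with the median of all genes at -0.12. *KAC2* (AT5G65460) had 7.77, 8.12 and 7.01 FPKM against 9.39, 10.4 and 10.3, a log2 fold change of -0.24 (SE 0.11, adjusted p = 0.0985). The groups did not overlap in either gene.

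AT5G27950, annotated to cytoskeleton-dependent transport, had 28.4, 29.1 and 35.6 FPKM in *flpl1*, against 51.6, 67.4 and 62.0 in Col-0, and fell by 0.81 on the log2 scale (SE 0.13, adjusted p = 0.00131). It was the most abundant member in Col-0. AT1G55550, with the same transport term, fell by 0.81 (SE 0.15, adjusted p = 0.00247), from 4.0 ± 0.615 to 2.05 ± 0.137 FPKM (SD, n = 3 each), and was named after its values were seen. Together with *KAC1* and *ATK2* these were the 4 members that fell at an adjusted p under 0.05.

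For cell wall deposition the central member is *FRA1* (AT5G47820, Chr. 5, 19366483 to 19372789), a motor needed for ordered cellulose microfibrils and for delivery of wall material. It had 21.7, 20.6 and 22.6 FPKM in *flpl1*, against 21.8, 27.6 and 29.2 in Col-0, and the groups overlapped at a log2 fold change of -0.12 (SE 0.11, adjusted p = 0.369). *KINESIN-13A* (AT3G16630), a microtubule-shortening kinesin found at Golgi stacks and in secondary wall pits, was at 20.0 ± 0.578 against 20.6 ± 0.969 FPKM (SD, n = 3 each; log2 fold change 0.10, SE 0.10, adjusted p = 0.389). AT3G16060, with terms for microtubule depolymerization and wall organization, rose by 0.63 (SE 0.10, adjusted p = 0.00155), from 12.2 ± 1.14 to 17.1 ± 0.119 FPKM.

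*ZWI* (also *KCBP*, AT5G65930), the calmodulin-binding minus-end motor needed for trichome stalks and branches, had 8.85, 9.31 and 8.96 FPKM in *flpl1*, against 7.41, 8.10 and 7.83 in Col-0. It rose by 0.37 (SE 0.10, adjusted p = 0.0144) with separated groups. The armadillo repeat kinesins showed no difference beyond the spread between plants. *ARK1* (also *MRH2*, AT3G54870), which acts in root hair growth, was at 0.12 ± 0.0458 against 0.137 ± 0.0208 FPKM, and *ARK2* (AT1G01950) and *ARK3* had log2 fold changes of 0.14 and 0.28 (adjusted p = 0.340 and 0.116).

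Of the remaining members with a listed role, AT4G39050, annotated to mitochondria, rose by 0.89 (SE 0.20, adjusted p = 0.00627), from 10.9 ± 2.34 to 18.6 ± 0.677 FPKM (SD, n = 3 each). Without Col-0 replicate 1, which had 13.6 FPKM against 9.07 and 10.2 in the other two, its log2 fold change was 1.15 and it was called. AT1G21730, also annotated to mitochondria, had a log2 fold change of -0.07 (SE 0.17, adjusted p = 0.753). *KIN1* (AT3G63480) had 1.21, 0.98 and 0.75 FPKM against 0.39, 0.46 and 0.85 (0.96, SE 0.40, adjusted p = 0.0721). It was called without Col-0 replicate 3 (log2 fold change 1.35; adjusted p = 0.0348), and it shares 174 bp with AT3G63470 on the opposite strand.

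Levels of the 61 members spanned from near 0 to over 50 FPKM. In Col-0 the order was AT5G27950 (60.3 ± 8.05 FPKM), *KAC1* (44.2 ± 4.37), AT2G21380 (34.55 ± 0.503), *ATK2* (32.6 ± 5.67), *FRA1* (26.2 ± 3.88) and *KINESIN-13A* (20.6 ± 0.969; SD, n = 3 each). AT2G21380 and *ATK2* did not differ beyond their SD, and the other neighbours did. In *flpl1* AT2G21380 was highest, at 53.4 ± 1.62 FPKM, followed by AT5G27950 (31.0 ± 3.99), and then by AT3G45850 (21.8 ± 1.68), *FRA1* (21.6 ± 1.01) and *KAC1* (21.4 ± 0.78), which did not differ from each other beyond their SD. Members under a mean of 1 FPKM numbered 33 in Col-0 and 17 in *flpl1*. The summed FPKM of all members was 415.6, 416.4 and 406.5 in *flpl1*, against 328.2, 366.9 and 364.6 in Col-0. The 4 members with the highest mean FPKM over the 6 libraries held 29.1%, 29.4% and 31.8% of these sums in *flpl1*, against 46.5%, 51.0% and 48.1% in Col-0. The groups were separated in both measures, and for 3 plants against 3 the smallest two-sided p of an exact permutation test is 0.1.

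**Figure D3:**
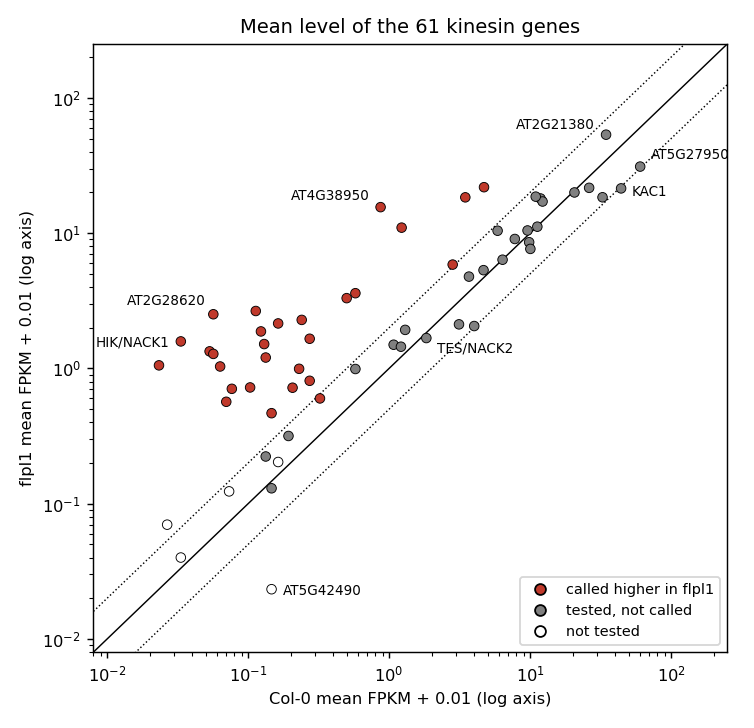
Mean FPKM of the 61 kinesin genes in *flpl1* (vertical) against Col-0 (horizontal), both on log axes after adding 0.01, with 1 point per gene; the solid line marks equal levels and the dotted lines 2-fold. Most called genes (red) lie at the left, under 1 FPKM in Col-0, while AT5G27950 and *KAC1*, the most abundant members in Col-0, lie near the lower 2-fold line.

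Chr. 2, the chromosome with the additional copy, carries 8 members, and 7 of them were tested. All 7 had a positive log2 fold change, 4 were called higher (57.1%) and the median was 3.32. Over all 2848 tested genes on Chr. 2, 32.5% were called higher and the median was 0.55. The called genes were AT2G28620, AT2G36200, AT2G22610 and AT2G47500. Except for AT2G47500, they were under 1 FPKM in Col-0 and passed the filter on low counts only with *flpl1* libraries. The counts therefore cannot decide whether kinesins differ from the other genes of Chr. 2. The others rose by less, AT2G21380 by 0.77 (SE 0.13, adjusted p = 0.00154), AT2G21300 by 0.75 (SE 0.10, adjusted p = 0.000678) and AT2G37420 by the 0.43 given above. On the other chromosomes 24 of 49 tested members (49.0%) were called higher with a median of 0.96, beside 17.4% of all genes on Chr. 1, 3, 4 and 5 and a median of -0.10.

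Genes that work with the division kinesins were read from lists of partners. In the MAP kinase cascade and among phragmoplast proteins, 13 of 17 genes were called higher (76.5%, beside 19.8% of all tested genes), with a median log2 fold change of 1.91. Of the 13, 9 were under 1 FPKM in Col-0, where the share over all tested genes was 60.8%. This is not a like share, since some of the 9 passed the filter on low counts only with *flpl1* libraries. *MKK6*, with 0, 1 and 1 counts in Col-0, is an example. The list holds AT2G01750 through an error of entry, since it is *MAP70-3* and not a MAP65 gene, and without it 12 of 16 were called with a median of 1.99. *MKK6*, the MAP kinase kinase below *HIK* in the cascade, rose by 5.91 (SE 0.72), from 0, 0.03 and 0.04 FPKM in Col-0 to 1.99, 1.68 and 0.85 in *flpl1*. *ANP3*, a MAP kinase kinase kinase of the same cascade, had a log2 fold change of 3.75. The microtubule bundlers *MAP65-4* and *MAP65-5* rose by 4.85 and 4.10, and *KNOLLE*, the syntaxin of cell plate fusion, by 4.04. The FPKM of *KNOLLE* was 7.60, 6.32 and 4.46 in *flpl1*, against 0.51, 0.40 and 0.30 in Col-0. *MPK4*, the last kinase of the cascade, rose by 0.55 (adjusted p = 0.00330), from 21.4, 23.3 and 23.4 FPKM in Col-0 to 27.4, 31.6 and 30.8 in *flpl1*. *MAP65-3*, the main midzone bundler, did not pass the test (0.91, SE 0.46, adjusted p = 0.122).

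Among spindle and microtubule regulators, 9 of 17 genes were called higher (median 1.07), 7 of them under 1 FPKM in Col-0. The largest rises were those of *TPX2*, a spindle assembly factor (4.72), the Aurora kinases *AUR2* (4.46) and *AUR1* (3.83), and *EB1B*, a microtubule plus-end protein (3.65). The regulators of cortical arrays *MOR1*, *KTN1* and *CLASP* rose by 0.76, 0.72 and 0.39, under 2-fold. Of the 12 G2/M genes, 9 were called higher (median 3.02), and all 9 were under 1 FPKM in Col-0. Both counts stand beside the 19.8% of all tested genes and the 60.8% of those under 1 FPKM in Col-0. Several called genes of both lists passed the filter on low counts only with *flpl1* libraries. *CDKB1;2*, with 2, 0 and 0 counts in Col-0, and *TPX2*, with 1, 6 and 1, are examples. The 60.8% is thus not a like share for them. *CDKB1;2* rose by 5.67, *CYCB1;2* by 4.92, *CDKB1;1* by 4.20 and *CDKB2;1* by 3.94. *MYB3R4*, an activator that binds the AACGG core, rose by 3.07 (SE 0.33, adjusted p = 0.00028), from 0.15, 0.16 and 0.16 FPKM to 1.51, 1.13 and 0.87. *MYB3R3*, counted among the repressors of these genes, fell by 0.51 (SE 0.16, adjusted p = 0.0248), and *MYB3R1* rose by 0.45 (adjusted p = 0.0332). *MYB3R5*, the remaining MYB3R gene of the list, had overlapping groups and a log2 fold change of -0.0034 (SE 0.23, adjusted p = 0.992).

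Partners of the kinesins of chloroplast movement, trichomes and walls gave other counts. Of the 7 chloroplast movement genes 0 were called with edgeR, DESeq2 or limma on log2(FPKM + 1). Over all 18638 tested genes edgeR called 19.8% higher and 14.4% lower. At an unadjusted edgeR p under 0.05, 1 of the 7 was higher and 2 were lower. Of all tested genes 6146 were higher and 6161 lower at that limit. *JAC1*, needed for chloroplast accumulation, fell by 0.59 (SE 0.12, adjusted p = 0.00428) and *CHUP1*, which anchors chloroplasts to actin, by 0.48 (SE 0.16, adjusted p = 0.0366). The photoreceptor genes *PHOT1* and *PHOT2* had log2 fold changes of -0.27 and 0.06 that did not pass the test. In the list of trichome shape and *FRA1* partners, *CMU2*, *CMU3* and *STI* were called higher, at 1.94, 1.37 and 1.22. AT2G46600, which encodes the calcium-binding partner of *ZWI* known as KIC, fell from 804.1, 919.6 and 967.4 FPKM to 50.7, 59.3 and 73.7, a log2 fold change of -3.73 (SE 0.18, adjusted p = 6.58e-05).

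Markers of young leaf cells were measured beside the division genes. *SPCH*, *MUTE* and *BASL*, which mark the early stomatal lineage, had too few counts for the test (20, 19 and 25 over all libraries) and summed levels of 0.58, 1.54 and 0.73 FPKM in *flpl1*, against 0.03, 0 and 0 in Col-0. Their highest library was *flpl1* replicate 2, which rests on few reads, and the order of the libraries was not tested. Of the 11 markers of shoot meristem and stomatal lineage, 2 passed the filter. All *flpl1* libraries lay above all Col-0 libraries for 5 of the 11, beside 29.8% of all tested genes. *SPCH*, *MUTE*, *BASL* and *CUC2*, untested genes with 4 to 25 counts in all, are among these 5, and at such counts a few reads separate the groups. The summed levels of the 11 markers were 15.5 to 17.0 FPKM in *flpl1*, against 12.2 to 16.5 in Col-0. Most of it came from *FAMA*, which is also on the list of mature leaf markers. The meristem markers *CLV3*, *WUS* and *CUC3* were at 0 counts in all 6 libraries and *STM* at 0 in the *flpl1* libraries. *TMM*, a receptor of the stomatal lineage, rose by 1.08 (adjusted p = 0.0401), a call that was lost in 5 of the 6 fits that left out a library. Of the 6 mature leaf markers, *RBCS1A* was called higher in *flpl1* (log2 fold change 2.0, SE 0.36, adjusted p = 0.00229), and the summed levels were 27773 to 33223 FPKM in *flpl1* against 10836 to 18772 in Col-0. The mature leaf markers were thus abundant in all libraries. The part of the cell mix in the kinesin results was not tested.

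**Figure D4:**
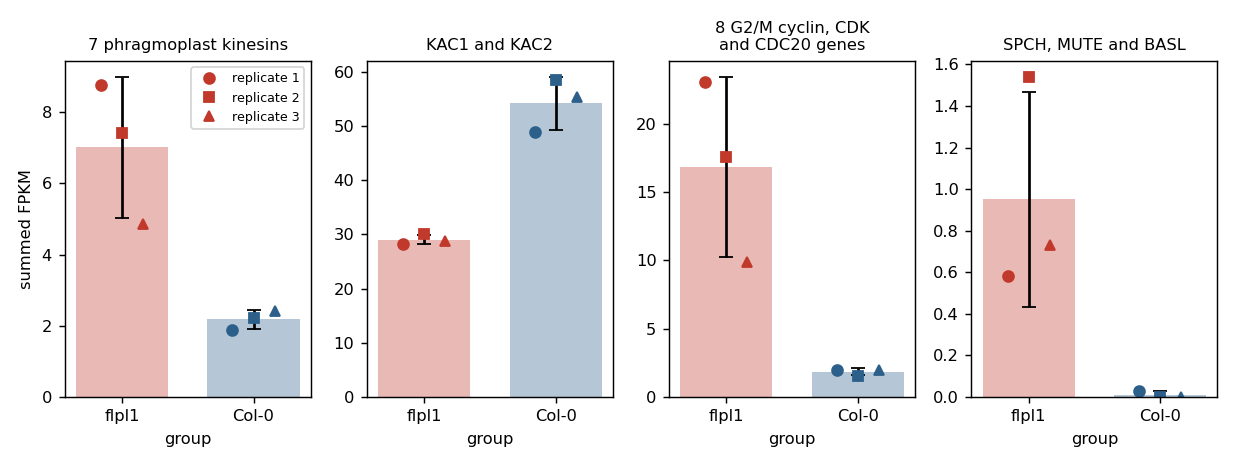
Summed FPKM per library of the 7 phragmoplast kinesins (*TES* included), of *KAC1* and *KAC2*, of the 8 G2/M cyclin, CDK and *CDC20* genes and of *SPCH*, *MUTE* and *BASL*; bars are means with SD (n = 3), symbols the 3 replicates. In every panel the groups are separated, and only the chloroplast movement pair is lower in *flpl1* (28.3 to 30.0 against 48.8 to 58.5 FPKM).

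Reads of near-identical or overlapping genes limit a few members. The use of the strand in counting is not given in the sources used here, and 8 members overlap another gene on the opposite strand. AT5G02370 shares 747 bp with a gene that had 159322 counts, so its value is uncertain. AT1G63640 and AT2G11280 share 1150 bp at 95.7% identity, and AT1G18410 shares 316 bp at 98.1% with AT1G58060, so their counts could be split between copies. These 4 members were not called. Of the members with an overlap on the opposite strand, *ATK5*, AT3G45850 and AT2G22610 were called, and the genes they overlap by 492, 97 and 5 bp had 0, 1 and 244 counts in all.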

How the data were processed

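Mature leaf RNA of 3 *flpl1* and 3 Col-0 plants was sequenced in paired-end mode. The authors trimmed the reads with Cutadapt 1.9.1, mapped them to TAIR10 by HISAT2 and used HTSeq 0.6.1 to count them per gene. The deposited count is the raw number of reads per gene, and the deposited FPKM follows from it (100% of values within 0.01). Groups and replicate numbers came from the sample titles. Gene positions are those of the tables.

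Counts were tested with edgeR 4.0.16 (TMM, filterByExpr, quasi-likelihood test; R 4.3.3). Alternatives used DESeq2 1.42.0, limma 3.58.1 on log2(FPKM + 1) and log2(FPKM + 0.1), other scalings and filters, a replicate block, and each library left out. Promoters came from the RefSeq annotation, and copies from BLAST 2.17.0 (at least 95% identity over 100 bp). The test was checked on simulated data. Members, lists and roles were chosen with earlier results of these data known. The rule for naming took all called members, those with a listed role, the 3 most abundant uncalled members and up to 4 called genes per list. Other genes, among them *ANP3*, *MYB3R4*, AT2G21300 and uncalled list genes such as *MPK4* and *MOR1*, were named outside this rule. Of the partner lists, AT1G50230 was not analysed here. Exact intervals cover counting error only.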

Additional observations from a re-analysis of the deposited data

How the results depend on the processing

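The 28 called members became 11 when the test was limited to a mean FPKM of 1 or more, which leaves fewer members in the test, and 16 with limma on log2(FPKM + 1), whose pseudocount shrinks low genes. The median log2 fold change was then 0.65 and 0.52. In the other fits the number called higher ran from 25 to 37. The number called lower was 0 with edgeR as described and 4 with no fold limit. It was 1 with DESeq2 and with no filter on low counts (AT5G42490, named after its values were seen, at 0, 0 and 3 counts in *flpl1* against 12, 14 and 5 in Col-0, lower by a ratio of 10.2, 95% counting interval 3.17 to 52.0). It was also 1 with limma on log2(FPKM + 1) and on log2(FPKM + 0.1), where it was *KAC1*. Leaving out each library gave 26 to 29 members higher, 0 to 1 lower, and medians from 0.94 to 1.23. Members with the exact term for microtubule motor activity alone, an alternative chosen after seeing the data, gave 25 higher and a median of 0.96. The 4 calls on Chr. 2 became 6 with no fold limit and stayed 4 in the other fits.

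With the mean FPKM filter the MAP kinase and phragmoplast list fell from 13 to 8 genes called higher and the G2/M list from 9 to 4. With limma on log2(FPKM + 1) the G2/M list had 3 and the trichome and *FRA1* list 1 in place of 3. The phragmoplast kinesins had 1 in place of 6 there, and the spindle kinesins kept 6. With the mean FPKM filter *TES* was the only phragmoplast kinesin left in the test. The spindle regulators had 15 with no fold limit. The shoot meristem and stomatal lineage markers had 4 with DESeq2 and with no filter, 0 with limma at either pseudocount, and 0 to 1 when a library was left out. The mature leaf markers had 3 with DESeq2, 2 with the libraries centred on genes outside Chr. 2 and with limma at either pseudocount, and 1 to 3 when a library was left out. The causes were not tested.

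Centring on genes outside Chr. 2 moved the median of all genes to 0.11 and gave 29 members higher with a median of 1.11, and limma on FPKM moved it to -0.12 or -0.14. With the replicate number as a block, 27 members were called higher, and AT3G44050 lost its call (adjusted p = 0.0571). Deviations of same-numbered libraries correlated at 0.0253, -0.125 and 0.102, so the numbers were not taken to pair the plants. Of 45 named members, 25 were on the same side of the call in each of 15 alternatives that could fit them, and 0 called genes changed direction. Depth limits the members near 0 in Col-0, and 3 plants per group limit the others.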

Other observations

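The actin-based motors of the leaf, the myosins, were described beside the kinesins, by the GO term microfilament motor activity, which was chosen after the kinesin results were seen. Of 20 listed genes 17 were tested, 4 were called higher in *flpl1* and 1 lower, beside 19.8% and 14.4% of all tested genes, and the median log2 fold change was 0.37. *XIB*, *VIIIB*, *XIG* and *XIF* rose by 2.43, 1.73, 1.66 and 1.42 on the log2 scale, and *XIG* and *XIF* lie on Chr. 2. *XIA* fell from 0.443 ± 0.121 to 0.0433 ± 0.00577 FPKM (SD, n = 3 each; log2 fold change -3.16, SE 0.38; adjusted p = 0.000434). *XIK* and *MYA2*, which drive organelle movement and are the most abundant myosins of Col-0 leaves, fell by 0.78 (SE 0.15; adjusted p = 0.00344) and by 0.65 (SE 0.15; adjusted p = 0.00695), under 2-fold.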
